A study of Mus musculus with 2 samples.

Results

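Plasmacytoid dendritic cells were a rare class among the cells enriched as leukocytes from MC38-OVA tumours. They made up 59 of 18460 cell barcodes, with 35 of 9766 in the Sitagliptin library and 24 of 8694 in the Control library. A barcode was counted when it held at least 3 unique molecular identifiers (UMIs, each 1 captured RNA molecule) over Siglech, Ccr9, Klk1, Cox6a2 and Ly6d together and at least 1 UMI of Siglech. It also had to hold 0 UMIs over the T cell genes Cd3d, Cd3e and Trac and at most 20 over the B and plasma cell genes Jchain, Mzb1 and Cd79a. The 5 genes of the rule chose the barcodes, so their levels are given as a description.

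The Sitagliptin library came from tumours of mice whose feed held sitagliptin, a drug that blocks the peptidase DPP4, and the Control library from tumours of mice on a control diet. Both groups carried MC38-OVA tumours, a mouse colon carcinoma line that expresses ovalbumin as a model antigen, and both have the genotype label WT. CD45+ cells, that is leukocytes, were enriched magnetically (MACS) and counted with a droplet kit that reads the 5′ ends of transcripts (SeekOne DD). The host strain, age, sex, drug dose, days of feeding and number of mice are unknown here, and each diet is 1 library, so no test between diets was possible and the intervals below cover counting error only.

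Plasmacytoid dendritic cells are round, secretory dendritic cells that sense viral RNA and DNA in endosomes through TLR7 and TLR9 and are known for their large output of type I interferon. Their identity depends on the E protein TCF4, which acts against ID2, the factor that favours conventional dendritic cells. In tumours they are usually scarce, and are known to produce little interferon there.

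The label was checked against markers that the rule did not use. Tcf4 was detected in 34 of 35 barcodes of the Sitagliptin library and in 22 of 24 of the Control library, and Bst2, which encodes the antigen known as PDCA-1, in 34 of 35 and 23 of 24. Detection of Bst2 alone separates the classes little, since 84.7% and 86.4% of macrophages also had it. With every barcode reduced to 2000 UMIs, Tcf4 was still found in 88.6% of the sitagliptin and 83.3% of the control barcodes, against 18.8% and 19.6% of macrophages. The median depth before this step was 3754 and 3909 UMIs in the plasmacytoid barcodes and 9338 and 8076 UMIs in the macrophages of the Sitagliptin and Control libraries. Without thinning, macrophages had Tcf4 in 59% and 55.3% of barcodes. Among conventional dendritic cells (classes cDC1 and cDC2, defined below), thinned cDC2 had Tcf4 in 31.25% and 8.82% of barcodes and cDC1 in 8.51% and 17.2%. Thinned Bst2 was in 88.6% and 87.5% of plasmacytoid barcodes. It was in 45.3% and 52.1% of macrophages, 47.9% and 47.1% of cDC2, and 38.3% and 48.3% of cDC1. Of genes of other lineages that the rule did not use, Ms4a1 and Pax5 (B cells), Ncr1 and Eomes (NK cells), S100a8 and S100a9 (neutrophils), and Cpa3, Ms4a2 and Mcpt8 (mast cells and basophils) had 0 UMIs over the 59 barcodes. Other genes of such lists were seen at low counts. In sitagliptin and control, Nkg7 and Klrb1c (NK cells) had 7 and 2 UMIs together, 6 of the 7 in 1 barcode. Cd3g, Trbc2 and Cd28 (T cells) had 1 and 4, Csf3r (neutrophils) 0 and 1, and Epcam and Col3a1 (tumour or stromal cells) 5 and 7. The B cell list, through Cd79b alone, had 9.92 and 11.9 CPM, against 3.87 and 2.85 CPM in the rest. Plasma cell genes were present in part. Of 3 measured, 2 were at least 2-fold higher than in the rest, beside 7.51% of all genes with at least 10 UMIs. The 2 were Mzb1 (33.9-fold), which the rule limited, and Xbp1 (2.54-fold). The data carry the label, apart from these genes and from macrophage RNA in a subset of barcodes described below.

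Most barcodes were far from the limit of the rule. The summed UMIs of the 5 rule genes had a median of 16 in the Sitagliptin library (3 to 65) and 10.5 in the Control library (3 to 34). All 5 genes were seen in 15 sitagliptin and 4 control barcodes, 4 of them in 12 and 12, and 3 of them in 6 and 7. Just inside the limit, with a sum of 3 or 4, lay 2 sitagliptin barcodes with 1762 CPM (a gene's UMIs divided by all UMIs of the group and scaled to a fixed total) of Tcf4 and 3 control barcodes with 1558 CPM. Just outside, with a sum of 2, lay 3 sitagliptin barcodes with 366 CPM of Tcf4 and 1 control barcode with 1352 CPM. A further 5 sitagliptin and 3 control barcodes reached the marker sum and were left out for a T cell gene.

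**Figure D1:**
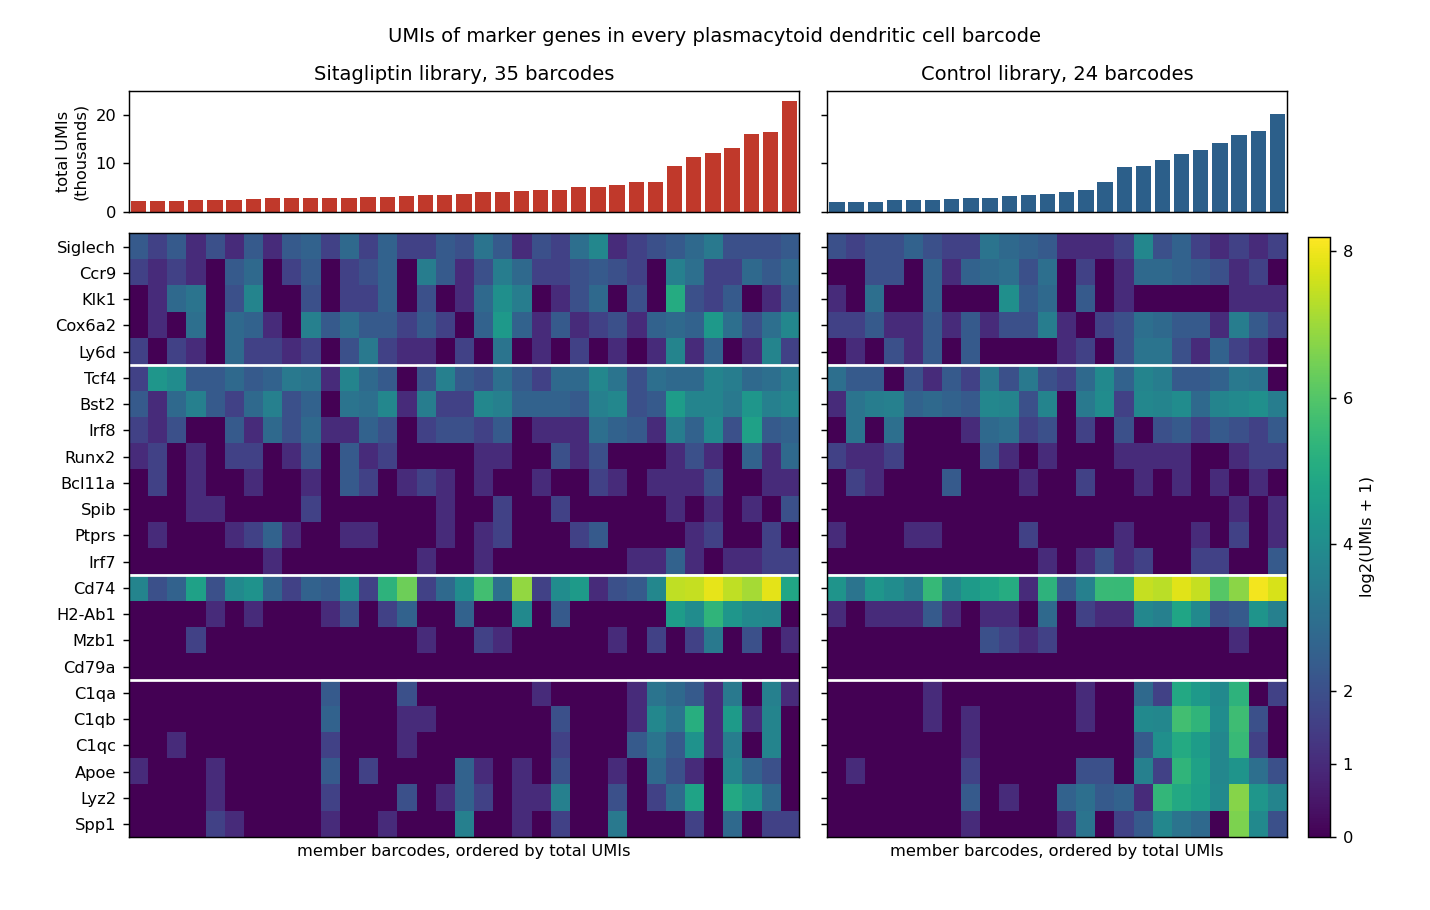
UMIs of marker genes in each of the 35 sitagliptin barcodes (left) and 24 control barcodes (right), ordered by total UMIs, which the bars show divided by 1000. Colour is log2(UMIs + 1). The upper 5 rows are the genes of the rule, the next 8 other plasmacytoid genes, then 4 antigen presentation and B lineage genes and 6 macrophage genes. The macrophage genes are concentrated in the deepest barcodes at the right of each panel.

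RefSeq promoters were found for 3 of the 5 genes that chose the barcodes, all but Cox6a2 and Ly6d. Below are the 250 bases before the start of Siglech (chr7:55767934-55768183, plus strand), Klk1 (chr7:44225110-44225359, plus strand) and Ccr9 (chr9:123766961-123767210, plus strand), from RefSeq on GRCm38.p6. They are shown because each holds 1 match to the E-box CAGGTG or its reverse complement CACCTG, the type of letters that E proteins such as TCF4 are known to bind, printed in capitals.
Siglech: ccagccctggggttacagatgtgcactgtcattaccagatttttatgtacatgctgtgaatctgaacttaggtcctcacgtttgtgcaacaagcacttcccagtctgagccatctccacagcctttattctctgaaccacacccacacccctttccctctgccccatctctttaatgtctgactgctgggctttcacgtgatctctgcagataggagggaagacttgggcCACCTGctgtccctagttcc
Klk1: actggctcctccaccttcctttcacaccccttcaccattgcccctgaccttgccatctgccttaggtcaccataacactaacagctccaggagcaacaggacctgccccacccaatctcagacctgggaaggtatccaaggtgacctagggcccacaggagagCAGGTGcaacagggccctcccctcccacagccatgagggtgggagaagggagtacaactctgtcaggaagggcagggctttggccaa
Ccr9: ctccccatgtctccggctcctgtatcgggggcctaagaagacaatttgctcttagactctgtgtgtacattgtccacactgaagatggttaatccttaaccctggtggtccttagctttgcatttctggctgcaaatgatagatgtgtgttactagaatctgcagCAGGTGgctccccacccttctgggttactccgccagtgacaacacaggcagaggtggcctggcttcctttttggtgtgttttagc
The matches start at -20, -87 and -85 from the start sites of Siglech, Klk1 and Ccr9. RefSeq promoters were found for 17 of the 25 genes made up of the 5 rule genes and the 20 leading genes below. Of these 17, 7 hold CAGGTG on either strand: Siglech, Klk1, Ccr9, Grm8, Mctp2, Fcrla and Cyb561a3. Among all 27025 genes with a promoter, 19.4% hold it. On both strands, CAGCTG was found in 2 of the 17 genes (14.7% of all genes), AACCAC in 3 (12.47%), GAGGAAGT in 1 (2.79%) and TTCCGGAA in 1 (0.662%). A match is a string of letters and not a site in use, and the count files name no genome build.

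Depth and macrophage RNA differed among the plasmacytoid barcodes, and between the libraries, and both touch every sum below. Barcodes held 2167 to 22901 UMIs in the Sitagliptin library (201723 in all) and 2016 to 20206 in the Control library (168478 in all), with medians of 1695 and 1760.5 genes. No barcode lay between 6253 and 9297 UMIs. The 7 sitagliptin barcodes above 8000 UMIs carried 50.4% of the UMIs of their group and the 9 control barcodes 72.1%. Of the 132 barcode sequences that occurred in both libraries, 0 belonged to a plasmacytoid barcode.

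C1qa, a complement gene made by macrophages, reached 243 CPM (95% interval 180 to 321) in the sitagliptin barcodes and 677 CPM (558 to 813) in the control barcodes. These are 15.5% and 34.5% of the level in the macrophages of the same libraries, against 9.09 and 10.9 CPM in T cells. No gene of the list of 13 macrophage genes was at 0, although Adgre1 (F4/80) and Mertk had 7 and 2 UMIs. C1qb, C1qc, Apoe and Lyz2 stood at 9.69% to 18.7% of the macrophage level in the sitagliptin barcodes and 33.8% to 35.0% in the control barcodes. The UMIs were unevenly spread: C1qa had at least 1 UMI in 11 of 35 and 9 of 24 barcodes, and 25 sitagliptin and 13 control barcodes had at most 1 UMI over C1qa, C1qb and C1qc. Those 38 barcodes had Tcf4, which did not choose them, at 1505 and 1443 CPM in sitagliptin and control. Their Siglech (817 and 969 CPM) and C1qa (17.2 CPM and 0) are a description, since both genes took part in choosing these barcodes. The other 10 and 11 barcodes were deeper (median 7852 and 11992 UMIs) and had 679 and 500 CPM of Tcf4. The part of macrophage RNA in the differences between diets was not tested, so values without those barcodes are given beside them.

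**Figure D2:**
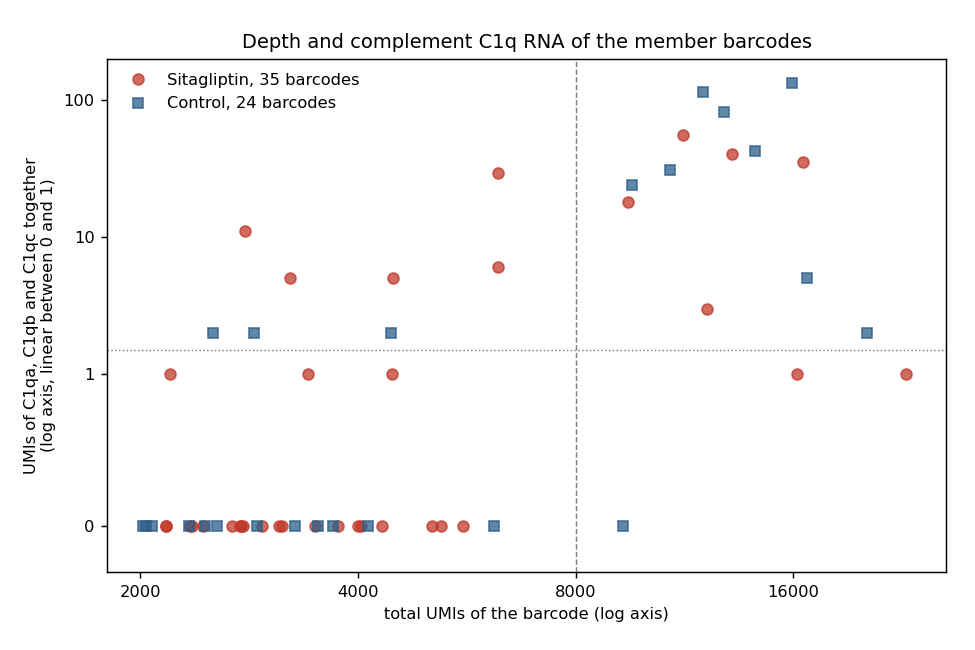
Total UMIs (log axis) and summed UMIs of C1qa, C1qb and C1qc (log axis, linear below 1) in each plasmacytoid barcode of the Sitagliptin (circles) and Control (squares) libraries. The dashed line marks 8000 UMIs and the dotted line separates barcodes with at most 1 C1q UMI. Of the 12 points with 10 or more C1q UMIs, 10 lie right of the dashed line, and the highest value, 132, is a control barcode.

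Against all other barcodes, 188 of 2253 genes tested (8.34%) were at least 2-fold higher in the plasmacytoid barcodes of both libraries and 10 (0.444%) at least 2-fold lower. A gene was tested when it had at least 30 UMIs, in at least 10 of the 59 barcodes. The barcodes were chosen by their own counts, so this contrast is a description with no test. Comparison classes were set by a few marker UMIs: 76 cDC1 (Xcr1, Clec9a), 82 cDC2 (Cd209a), 4626 macrophages (C1q genes with Csf1r) and 653 T cells.

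The UMIs of the rule genes were concentrated in the class to different degrees. Siglech, which encodes an endocytic receptor that signals through DAP12, had 131 UMIs in the sitagliptin and 80 in the control barcodes, which are 72.0% and 84.2% of all Siglech UMIs of each library. Klk1, a tissue kallikrein protease whose reads may be shared with its many near-identical paralogs, had 137 and 47 UMIs (90.1% and 72.3%). Ccr9, the receptor for the gut and thymus chemokine CCL25, had 120 and 70 UMIs (38.1% and 51.5%). Cox6a2, the muscle-type subunit of cytochrome c oxidase, had 166 and 80 UMIs (36.5% and 24.8%), and Ly6d, a small surface protein of early lymphoid cells, had 82 and 47 UMIs (46.3% and 60.3%). The remainder of these UMIs lay in barcodes outside the rule.

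The leading genes outside the rule included the ion pump and channel genes Atp2a1, Cacna1e and Atp1b1, a grouping that was not tested. Atp2a1, the calcium pump of fast skeletal muscle, had 109 CPM in sitagliptin and 89.0 CPM in control plasmacytoid barcodes, against 0.192 CPM in all other barcodes, a ratio of 520 (308 to 889). Cacna1e, the pore of a voltage-gated calcium channel, had 154 and 107 CPM against 0.647 CPM (204-fold). Atp1b1, the beta subunit of the sodium-potassium pump, had 471 and 404 CPM against 3.34 CPM (132-fold), and Grm8, a metabotropic glutamate receptor, 273 and 172 CPM against 0.484 CPM (469-fold). Atp2a1, Cacna1e and Grm8 are better known from muscle or neurons. Of each of these 4 genes, Atp1b1 included, cDC1 and cDC2 had between 0 and 2.63 CPM. Ncald, a neuronal calcium sensor, was 29.2-fold and Srgap3, a regulator of the actin skeleton known from neurons, 22.7-fold higher than in the rest.

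Surface and signalling genes made up a second group of the 20 leading genes. Klra17, which encodes the inhibitory receptor Ly49Q of mouse plasmacytoid cells, had 168 CPM in sitagliptin and 94.97 CPM in control barcodes, against 0.768 CPM in the rest (176-fold), with the reservation that Ly49 genes are close paralogs. Pacsin1, a membrane-bending adaptor that plasmacytoid cells need for TLR9-driven interferon, had 114 and 125 CPM against 1.17 CPM (102-fold). Flt3, the receptor for the growth factor of dendritic cells, had 168 and 160 CPM, against 101 CPM in cDC1 and 54.0 CPM in cDC2. Cd7, an immunoglobulin-family receptor of T and NK cells, was 32.3-fold higher than in the rest and had 55.7 CPM in cDC2. Mctp2, a membrane protein with C2 domains, was 43.1-fold higher. Others were Bcl11a (93.8-fold), Aff3, a nuclear factor known from lymphoid cells (37.97-fold), Fcrla, an Fc receptor-like protein known from B cells (37.0-fold), Cyb561a3, a lysosomal iron reductase (33.4-fold), Rnase6, a secreted ribonuclease (25.3-fold), and Kynu, an enzyme of tryptophan breakdown (24.8-fold). Iglc3 and Mzb1 also belong to the 20 and are described with the lymphoid genes.

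**Figure D3:**
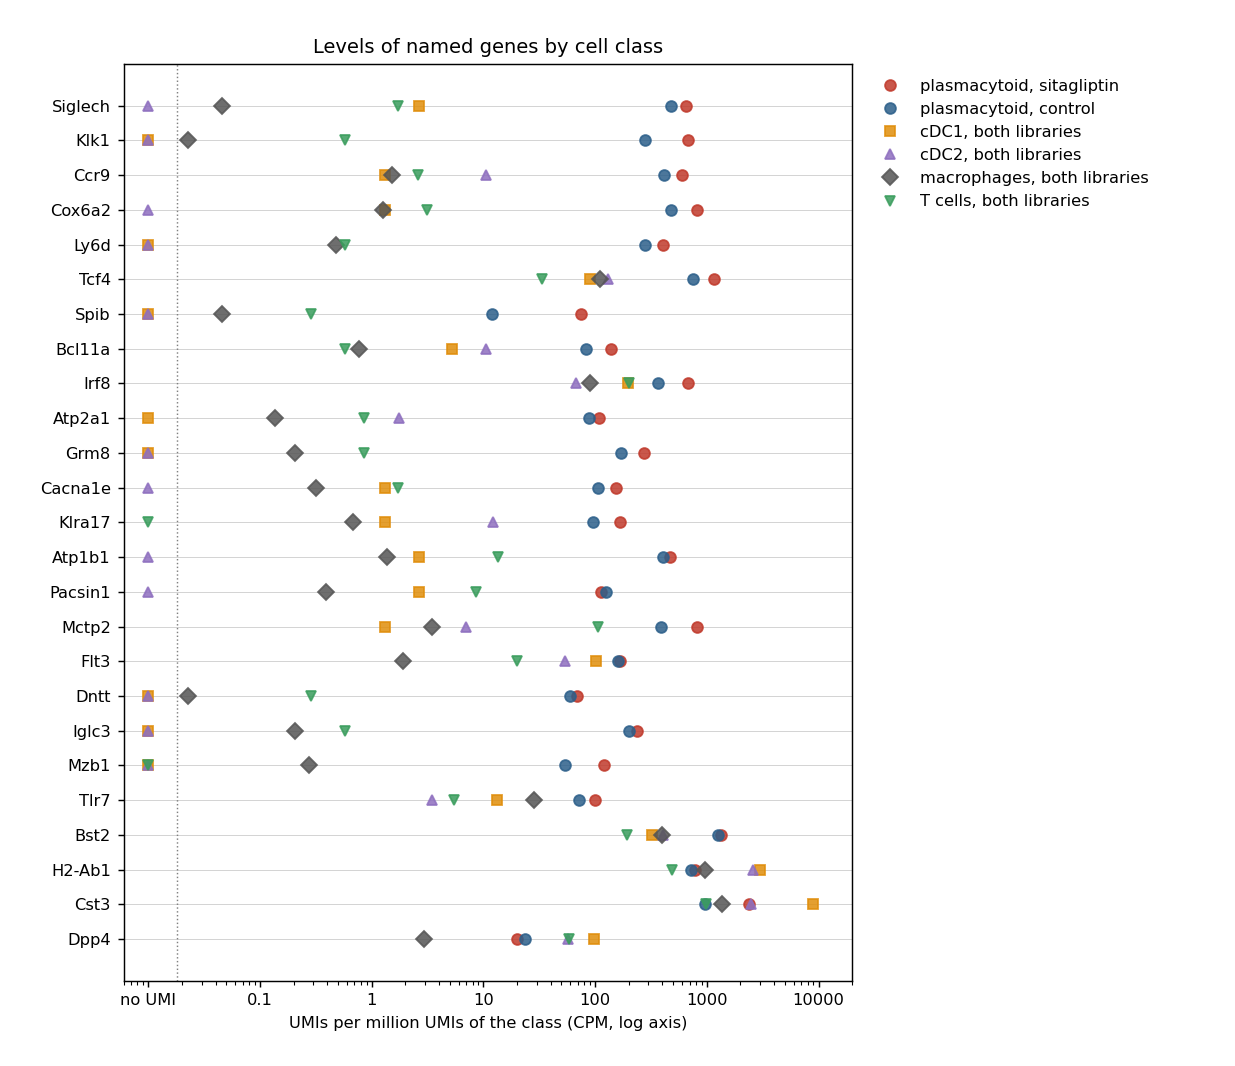
Level of named genes in CPM of each class (log axis). Circles are the plasmacytoid barcodes of the Sitagliptin and Control libraries, the other symbols cDC1, cDC2, macrophages and T cells of both libraries pooled, and points at the far left had no UMI. In every row from Siglech to Bst2 both plasmacytoid points lie to the right of the other classes, while H2-Ab1, Cst3 and Dpp4 are highest in cDC1.

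Known plasmacytoid markers that the rule did not use were high as a group. Of 23 such genes, 21 had at least 10 UMIs, and 17 of these were at least 2-fold higher in both libraries and 0 lower, beside 7.51% higher and 1.05% lower among all 5420 genes with at least 10 UMIs. Their median log2 ratio was 2.71, against 0.10 for all those genes. Cd300c, a receptor of the CD300 family, had 18 sitagliptin and 8 control UMIs, 366-fold above the rest. Blnk, a signalling adaptor shared with B cells, had 491 CPM in sitagliptin and 362 CPM in control barcodes (8.89-fold over the rest). Ly6c2 reached 560 and 534 CPM (5.29-fold), close to the 464 CPM of T cells, and its reads may be shared with Ly6c1. Ly6a (1.79-fold), Clec12a (1.44-fold) and Nrp1 (0.797-fold) did not reach 2-fold in both libraries, and neither did Ptprs, a phosphatase that restrains these cells, at 4.11-fold in sitagliptin and 1.59-fold in control. Havcr1 and Upb1 had under 10 UMIs.

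Of 14 measured transcription factors known in the lineage, 6 were at least 2-fold higher than the rest in both libraries and 0 lower, with a median log2 ratio of 1.55. Over all genes with at least 10 UMIs the shares were 7.51% and 1.05%. Tcf4 had 1155 CPM in the sitagliptin and 760 CPM in the control barcodes, against 97.2 CPM in all others (10.03-fold, 9.01 to 11.1). Its dimer partner Tcf12 was 4.65-fold higher, Irf8 6.35-fold, and the TCF4 cofactor Cbfa2t3 5.22-fold. Bcl11a, a zinc finger factor required for the lineage, had 139 and 83.1 CPM against 1.21 CPM. Spib, an ETS factor with the same requirement, had 15 UMIs in 10 of 35 sitagliptin barcodes and 2 UMIs in 2 of 24 control barcodes, and 403-fold the level of the rest. The other 8 did not reach 2-fold in both libraries. Runx2, which directs exit from the marrow, was 3.21-fold higher in sitagliptin and 1.79-fold in control, and Ikzf1 4.34-fold and 1.86-fold. Irf7, the factor that amplifies interferon transcription, was at 84.3 and 94.97 CPM (1.66-fold), and Zeb2 at 0.864-fold. Mycl (8 UMIs, 105-fold) is below the limit for counting, like Ikzf3, Bcor and Creb3l2.

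Factors of conventional dendritic cells were mixed, with 1 of 7 measured genes at least 2-fold higher in both libraries and 1 lower. The shares over all genes with at least 10 UMIs were 7.51% and 1.05%. The lower gene was Id2, at 74.4 CPM in sitagliptin and 59.4 CPM in control barcodes, against 144 CPM in all others (0.470-fold) and 213 CPM in cDC1. The higher one was Irf4, at 39.7 and 53.4 CPM against 9.54 CPM, with 105 CPM in cDC2. Klf4 (0.529-fold) and Nfil3 (0.651-fold) were lower than the rest without reaching 2-fold in both libraries. Zbtb46 and Batf3 had under 10 UMIs.

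Several genes of the endosomal sensing route for RNA were detected. Tlr7, the receptor for single-stranded RNA, had 20 UMIs (99.2 CPM) in sitagliptin and 12 UMIs (71.2 CPM) in control barcodes, 5.05-fold (3.45 to 7.15) above the rest and above the 28.1 CPM of macrophages. The chaperone Unc93b1, which carries the receptors to endosomes, was 2.64-fold higher, the lysosomal transporter Slc15a4 4.91-fold and the nuclease Pld4 3.50-fold. These 4 of 20 measured genes of the pathway were at least 2-fold higher in both libraries and 0 were lower, beside 7.51% higher and 1.05% lower among all genes with at least 10 UMIs. Tlr9, the DNA sensor, had 0 UMIs in the 59 barcodes, where 3 UMIs would be 14.9 CPM in sitagliptin and 17.8 CPM in control and the exact 95% Poisson upper bounds are 18.3 and 21.9 CPM, and had 78 and 44 UMIs in the whole of each library. Myd88 is listed at 0 in all 18460 barcodes, so its level cannot be read from these files.

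Of 20 type I and type III interferon genes, 17 are listed at 0 in all 18460 barcodes, so nothing can be read from them. They include 12 of the 13 Ifna genes listed, whose near-identical sequences could split or lose reads, and Ifnab, Ifne, Ifnz, Ifnl2 and Ifnl3. Of the 3 genes seen anywhere, Ifnb1 had 1 UMI in 1 sitagliptin plasmacytoid barcode and 0 in control, out of 299 and 62 Ifnb1 UMIs in the whole libraries. Ifna13 and Ifnk had 0 UMIs in the plasmacytoid barcodes and at most 0.0261 CPM in the other barcodes of either library. Interferon response genes stood near the level of all other barcodes, with 2 of 19 at least 2-fold higher in both libraries, 0 lower and a median log2 ratio of -0.01. Among all genes with at least 10 UMIs, 7.51% were higher and 1.05% lower. The 2 were Bst2, at 1329 CPM in sitagliptin and 1270 CPM in control barcodes (3.38-fold), and Trim30a (2.43-fold). Stat2 (2.56-fold) and Ifi35 (2.42-fold) were higher over both libraries together but under 2-fold in control. Isg15 was at 0.877-fold and Ifitm3 at 0.679-fold of the rest. The interferon receptor chains Ifnar1 (2.25-fold) and Ifnar2 (3.22-fold) were higher in both libraries.

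Of 19 measured receptors and adaptors that restrain plasmacytoid cells, 7 were at least 2-fold higher in both libraries and 0 lower, beside 7.51% and 1.05% of all genes with at least 10 UMIs. Their median log2 ratio was 1.14, and both values include Siglech, which the rule used. The others of the 7 included Bst2, Lag3 (6.56-fold), the collagen receptor Lair1 (4.497-fold), Blnk and the lipid phosphatase Inpp5d (2.26-fold). Tyrobp, which encodes the DAP12 adaptor of Siglech, had 3039 CPM in sitagliptin and 2843 CPM in control barcodes, 1.97-fold above the rest. Fcer1g, another signalling adaptor of myeloid cells, was at 0.947-fold. Lag3, a receptor for MHC class II, had 74.4 and 41.6 CPM, below the 100 CPM of T cells. Plcg2 (2.22-fold) and Ptpn6 (2.20-fold) were higher over both libraries together and missed 2-fold in control and sitagliptin barcodes in turn.

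Of 16 chemokine and homing receptor genes, 10 had at least 10 UMIs, and 4 of these were at least 2-fold higher in both libraries. Of all genes with at least 10 UMIs, 7.51% were. Among the 4 were Ccr9 (a rule gene), Selplg, the selectin ligand PSGL-1 (4.89-fold), and Itga4, an integrin chain for entry into inflamed tissue (3.58-fold). Ccr2 (1.007-fold) was at the level of the rest, and Cxcr3, Cxcr4, Ccr6, S1pr1, S1pr4 and Cmklr1 had under 10 UMIs each. Among 10 measured chemokines and cytokines, 2 were at least 2-fold higher and 2 lower, beside 7.51% and 1.05% of all genes with at least 10 UMIs. Ccl4, a chemokine known in activated plasmacytoid cells, had 848 CPM in sitagliptin and 1062 CPM in control barcodes, against 329 CPM in all others (2.88-fold). Il12a, the p35 chain of interleukin 12, had 6 UMIs in 4 sitagliptin and 6 UMIs in 5 control barcodes, 65.1-fold (32.1 to 121) above the rest, while Il12b, the other chain, had 0. The lower genes were Ccl5 (0.324-fold) and Ccl9 (0.367-fold).

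Genes of MHC class II had lower levels than in conventional dendritic cells. Of 13 measured genes of MHC class II and costimulation, 0 were at least 2-fold higher and 0 lower than in the rest. Among all genes with at least 10 UMIs, 7.51% were higher and 1.05% lower. The sum of the list was 13543 CPM in sitagliptin and 15593 CPM in control barcodes, against 39846 CPM in cDC1 and 33735 CPM in cDC2. H2-Ab1 was at 0.270-fold (0.239 to 0.305) of conventional dendritic cells, H2-Eb1 at 0.282-fold, H2-Aa at 0.334-fold and the invariant chain Cd74 at 0.425-fold. Single barcodes differed widely: Cd74 ranged between 1 and 235 UMIs (median 14) in sitagliptin and between 1 and 265 (median 35.5) in control. H2-Ab1 was seen in 15 of 35 sitagliptin and 20 of 24 control barcodes. In the 38 barcodes with at most 1 C1q UMI the median log2 ratio of the list was -0.41, against 0.13 in all 59. The 11 genes of MHC class I presentation had 0 members at least 2-fold either way, beside the same shares of all genes. Their sum was 7124 CPM in sitagliptin and 6203 CPM in control barcodes, against 7621 CPM in cDC1 and 6142 CPM in cDC2. Against cDC1 and cDC2 pooled, 504 of 6253 genes (8.06%) were at least 2-fold higher in plasmacytoid barcodes and 391 (6.25%) lower.

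Some lymphoid genes are known to be expressed in these cells. Of 17 listed, 6 were measured, and 5 of these were at least 2-fold higher in both libraries, a count that includes the rule gene Ly6d and Mzb1, which the rule limited. Of all genes with at least 10 UMIs, 7.51% were. Dntt, the enzyme that adds bases at V(D)J joints, had 14 UMIs in 13 sitagliptin and 10 UMIs in 8 control barcodes, 434-fold (231 to 820) above the rest. Mzb1, an endoplasmic reticulum cochaperone of B cells, had 24 and 9 UMIs (33.9-fold), and its limit of 20 in the rule was met by every candidate. The constant region genes Iglc3 (48 and 34 UMIs, 206-fold) and Ighm (248 and 143 CPM, 2.45-fold) were higher too, the first with reads that may be shared with other lambda constant genes. Il7r was at 1.67-fold. Of the others, 9 had 0 UMIs, among them Jchain, Vpreb1, Igll1, Blk, Rag1, Rag2 and Igkc, while Cd79b and Ebf1 had 4 and 3. Rag1, Rag2, Igkc and Igll1 are listed at 0 in all 18460 barcodes, so nothing can be read from them.

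Of 28 measured genes of the endoplasmic reticulum and secretion, 2 were at least 2-fold higher in both libraries and 0 lower, a share near the 7.51% of all genes with at least 10 UMIs. The median log2 ratio of the list was 0.32, against 0.10 for all those genes. They were Herpud1, a stress-induced factor of protein disposal, at 109 CPM in sitagliptin and 107 CPM in control barcodes (4.09-fold), and Xbp1, the unfolded protein factor of secretory cells, at 124 and 143 CPM (2.54-fold). Subunits of the translocon and signal peptidase were next, among them Sec11c (1.75-fold), Spcs2 (1.66-fold) and Sec61b (1.49-fold), all with intervals above 1. The chaperone Hspa5 was at 0.977-fold.

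The protease and cytochrome c oxidase lists each hold a gene that chose the barcodes, Klk1 and Cox6a2, whose values are a description. Among 14 measured granule and protease genes, Klk1 and its paralog Klk1b27 (10 and 7 UMIs), which may share reads with it, were at least 2-fold higher. Ctsd, a lysosomal aspartic protease, was lower (0.332-fold), whereas Gzmb and Serpina3g had under 10 UMIs. Over all genes with at least 10 UMIs, 7.51% were higher and 1.05% lower. Cst3, the cysteine protease inhibitor of dendritic cells, had 2365 CPM in sitagliptin and 962 CPM in control, against 8871 CPM in cDC1, with 27.5% of its UMIs in 1 barcode. Of 12 measured cytochrome c oxidase subunits, the other 11 did not reach 2-fold either way in both libraries. Cox6a2 had 823 CPM in sitagliptin and 475 CPM in control barcodes against 3.78 CPM in all others. The ubiquitous form Cox6a1 was at 347 and 338 CPM against 372 CPM (0.922-fold).

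Proliferation genes were low, and most of their UMIs came from few barcodes, more so in control. Among 14 measured genes, 1 (Ube2c) was at least 2-fold lower in both libraries and 0 higher, beside 1.05% and 7.51% of all genes with at least 10 UMIs. The median log2 ratio was -0.90. The list had 175 UMIs in the sitagliptin barcodes, of which 55 and 27 lay in 2 barcodes. In the control barcodes it had 360 UMIs, of which 86.4% lay in 4. Stmn1 (18 UMIs in 6 sitagliptin, 67 UMIs in 9 control barcodes) and Mki67 (6 UMIs in 6, 29 UMIs in 5) are examples. In the 38 barcodes with at most 1 C1q UMI, the median log2 ratio of the list against the rest was -1.49. Only Top2a, Stmn1, Tubb5, Hmgb2 and Pcna kept at least 10 UMIs there.

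Genes of other dendritic cells were seen in part. Clec9a (15 UMIs over both libraries, 12.1-fold above the rest) and Wdfy4 (2.67-fold) of the cDC1 list, and Clec10a (8.49-fold) and Cd209a (12.6-fold) of the cDC2 list, exceeded the rest but not the classes they mark: Clec9a was at 49.6 CPM in sitagliptin and 29.7 CPM in control barcodes against 234 CPM in cDC1, and Cd209a at 69.4 and 35.6 CPM against 663 CPM in cDC2. Xcr1, which defines cDC1, had 0 UMIs. Genes of mature dendritic cells had 88 UMIs in the sitagliptin barcodes, 56 and 29 of them in 2 barcodes, against 5 UMIs in the control barcodes. Ccr7, the receptor that guides migration to lymph nodes, had 60 of these UMIs in 3 sitagliptin barcodes and 0 in control.

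Of 7 measured genes of the DPP4 family and its chemokine substrates, 1 (Ccl4) was at least 2-fold higher than in the rest and 1 (Ccl5) lower, both described above. The shares over all genes with at least 10 UMIs were 7.51% and 1.05%. Dpp4, the target of the drug, was scarce. It had 4 UMIs in 4 of 35 sitagliptin barcodes (19.8 CPM) and 4 UMIs in 3 of 24 control barcodes (23.7 CPM), 2.37-fold (1.02 to 4.69) above the rest. Macrophages had 2.96 CPM. Conventional dendritic cells had more, with 97.1 CPM in cDC1 and 57.5 CPM in cDC2, and T cells 58.3 CPM. A difference between diets was not detectable at this depth, with a ratio of 0.835 (0.156 to 4.48).

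**Figure D4:**
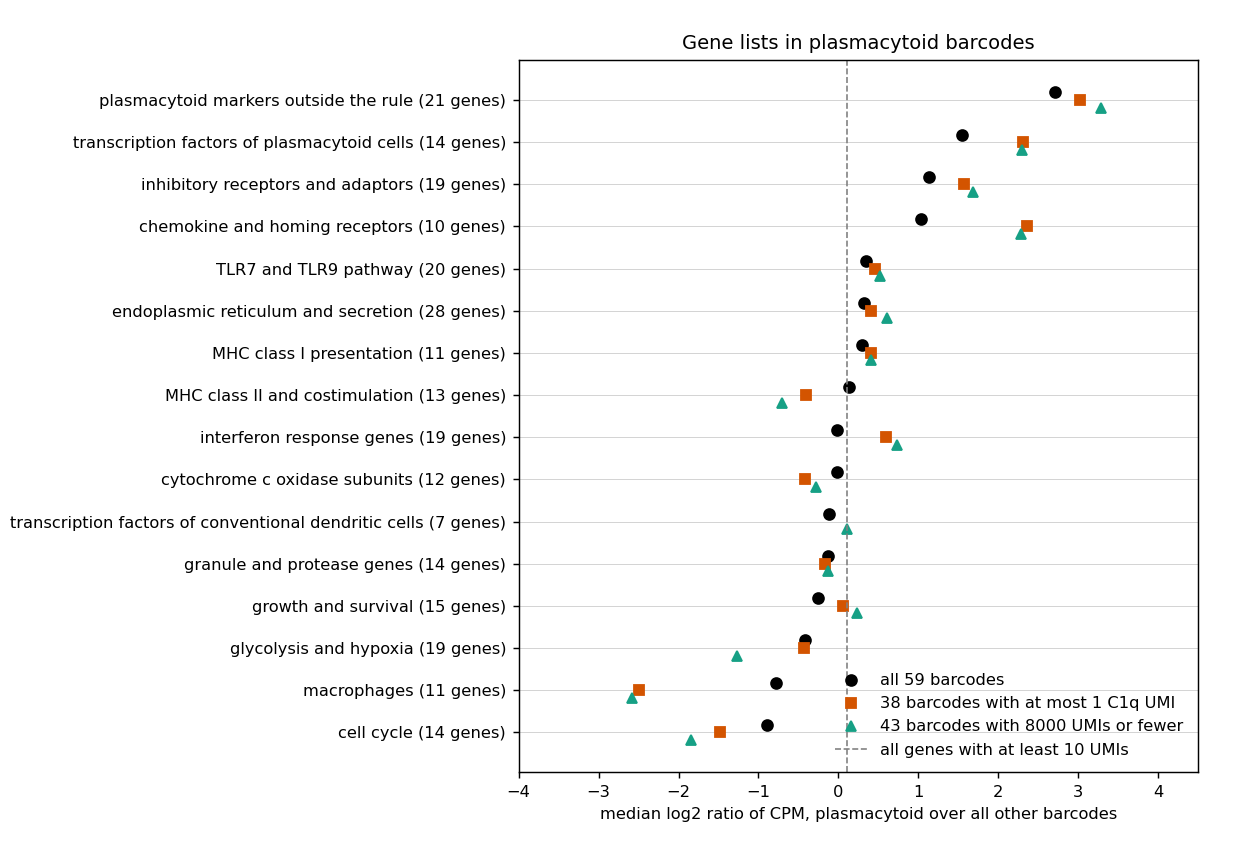
Median log2 ratio of CPM, plasmacytoid over all other barcodes, for 16 gene lists. Circles use all 59 barcodes, squares the 38 with at most 1 C1q UMI and triangles the 43 with 8000 UMIs or fewer. The count in brackets is the number of genes with at least 10 UMIs in all 59, and the dashed line is the median of all such genes (0.10). Squares and triangles use only members with at least 10 UMIs in those barcodes. For the cell cycle list the triangle rests on Hmgb2, Stmn1 and Tubb5 alone. Of these 16 lists, that of plasmacytoid markers lies furthest right under each choice of barcodes, and the macrophage and cell cycle lists furthest left.

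Between diets, the share of plasmacytoid barcodes was 0.358% (exact 95% interval 0.2498% to 0.498%) in the Sitagliptin library and 0.276% (0.177% to 0.410%) in the Control library, a ratio of 1.30 (0.773 to 2.18). Among barcodes with Ptprc, the gene for CD45, the ratio was 1.17 (0.697 to 1.97). Among dendritic cell barcodes the shares were 26.9% (35 of 130) and 27.6% (24 of 87), a ratio of 0.976 (0.627 to 1.52). Each interval includes 1. The lowest total in both libraries was 2001 UMIs, so the shares cover only barcodes at or above it.

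Within the plasmacytoid barcodes, 82 of 2253 genes (3.64%) were at least 2-fold higher in sitagliptin and 100 (4.44%) at least 2-fold lower, as values of 2 libraries without a replicate. Of the 21 measured plasmacytoid markers outside the rule, 17 had a higher CPM in the sitagliptin sum, in which barcodes above 8000 UMIs held a smaller part of the UMIs. The median log2 ratio of the 21 between diets was 0.44, against -0.04 for all genes with at least 10 UMIs. Klk1 stood at 679 CPM in sitagliptin and 279 CPM in control (2.43-fold), Cox6a2 at 1.73-fold, Ccr9 at 1.43-fold and Siglech at 1.37-fold. Tcf4 was at 1.52-fold (1.22 to 1.90) and Irf8 at 1.86-fold (1.37 to 2.56). In the 25 sitagliptin and 13 control barcodes with at most 1 C1q UMI these ratios were 1.04 for Klk1, 1.23 for Cox6a2, 1.16 for Ccr9, 0.844 for Siglech, 1.04 for Tcf4 (0.783 to 1.41) and 1.03 for Irf8 (0.696 to 1.56). Ly6d went the other way, with 1.46-fold in all and 2.22-fold in those barcodes. Among those 21 markers, 3 were at least 2-fold higher and 1 lower in sitagliptin, beside 8.63% higher and 10.1% lower among all genes with at least 10 UMIs.

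Spib had 74.4 CPM in sitagliptin and 11.9 CPM in control barcodes, 6.26-fold (1.46 to 56.5), from 15 and 2 UMIs. Without the barcodes that held 2 or more C1q UMIs it had 11 and 0 UMIs. Lair1 was 2.05-fold in all barcodes and 1.64-fold with little C1q RNA.

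The 8 genes with the highest ratio, sitagliptin over control, were led by Cdk8, a kinase of the Mediator complex. It had 688 UMIs (3411 CPM) in the sitagliptin barcodes and 141 UMIs (837 CPM) in the control barcodes, 4.08-fold (3.40 to 4.92), with 23.8% of the UMIs in 1 barcode. In the barcodes with little C1q RNA it was 3.04-fold (2.38 to 3.93). The same gene was higher in sitagliptin in each comparison class, at 922 and 686 CPM in cDC1, 4068 and 897 CPM in cDC2, 1702 and 811 CPM in macrophages and 2161 and 927 CPM in T cells of the Sitagliptin and Control libraries. Rnase6 followed with 74 and 17 UMIs (3.64-fold), and 2.30-fold (1.07 to 5.64) with little C1q RNA. Among the barcodes with 8000 UMIs or fewer, a choice made after seeing the data, Cdk8 was 3.24-fold (2.465 to 4.34) and Rnase6 1.575-fold (0.853 to 3.10). Ktn1 (3.34-fold), Rnd3 (3.13-fold), Fam129a (2.98-fold), Epc1 (2.86-fold), Slco3a1 (2.86-fold) and P2ry10, a lipid receptor of lymphocytes (2.78-fold), had 7 to 12 UMIs each in the control barcodes. With little C1q RNA, where the control barcodes held 1 to 5 UMIs of each, the ratios were 1.865 (0.520 to 10.1) for Ktn1, 2.80 for Rnd3, 1.998 for Fam129a, 6.39 (0.993 to 268) for Epc1, 5.19 (0.780 to 221) for Slco3a1 and 1.76 for P2ry10.

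The 8 lowest ratios belonged to the macrophage chemokine Ccl6 (10 UMIs in sitagliptin, 44 UMIs in control barcodes, 0.190-fold), Esyt2 (0.223-fold), Sestd1 (0.244-fold), the DNA repair enzyme Parp1 (0.259-fold), the tetraspanin Cd81 (0.259-fold), Chic2 (0.278-fold), the mitochondrial ADP/ATP carrier Slc25a4 (0.278-fold) and the mitochondrial superoxide dismutase Sod2 (0.286-fold). With little C1q RNA, Ccl6 had 4 UMIs in sitagliptin and 0 in control, while Chic2 (0.280-fold), Slc25a4 (0.266-fold) and Esyt2 (0.150-fold) had ratios near or below those of all barcodes. Those of Sestd1, Parp1 and Sod2 were 0.3995 each and that of Cd81 was 0.999. Ccl4 was at 0.798-fold in all barcodes and 0.361-fold (0.279 to 0.465) with little C1q RNA. The latter came from summed counts of 120 UMIs over 25 sitagliptin and 133 UMIs over 13 control barcodes. These sums may rest on few barcodes. The list of the DPP4 family and its chemokine substrates, which holds Ccl4, reached 13536 CPM in 1 control barcode. Its median over the control barcodes was 1059 CPM. The interval for Ccl4 does not cover such a spread between barcodes. Cst3 was 2.46-fold in all barcodes and 3.04-fold with little C1q RNA, but 1.14-fold (0.737 to 1.81) in barcodes with 8000 UMIs or fewer and 1.785-fold with every barcode weighted equally.

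Among the lists with at least 10 measured genes, those of the macrophages and the cell cycle had the medians furthest from 0 between diets. Of 11 measured macrophage genes, 6 were at least 2-fold lower in sitagliptin and 0 higher, and their median log2 ratio was -1.16. The summed level of the list was 2766 CPM in sitagliptin and 6654 CPM in control. Of 14 measured cell cycle genes, 10 were at least 2-fold lower and 0 higher, with a median of -1.78. In barcodes with at most 1 C1q UMI these medians were 0.27 and 0.79, so neither median held its direction there. The cell cycle value rests on Top2a (13 and 0 UMIs), Stmn1, Tubb5, Hmgb2 and Pcna, the only members that kept 10 UMIs. Stmn1 and Pcna stayed lower in sitagliptin (0.4795-fold each). The interferon response genes had 3 members at least 2-fold higher and 1 lower of 19 (median 0.19), and MHC class II and costimulation had 1 and 0 of 13 (median 0.11). Beside all these counts between diets, 8.63% of all genes with at least 10 UMIs were higher and 10.1% lower.

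**Figure D5:**
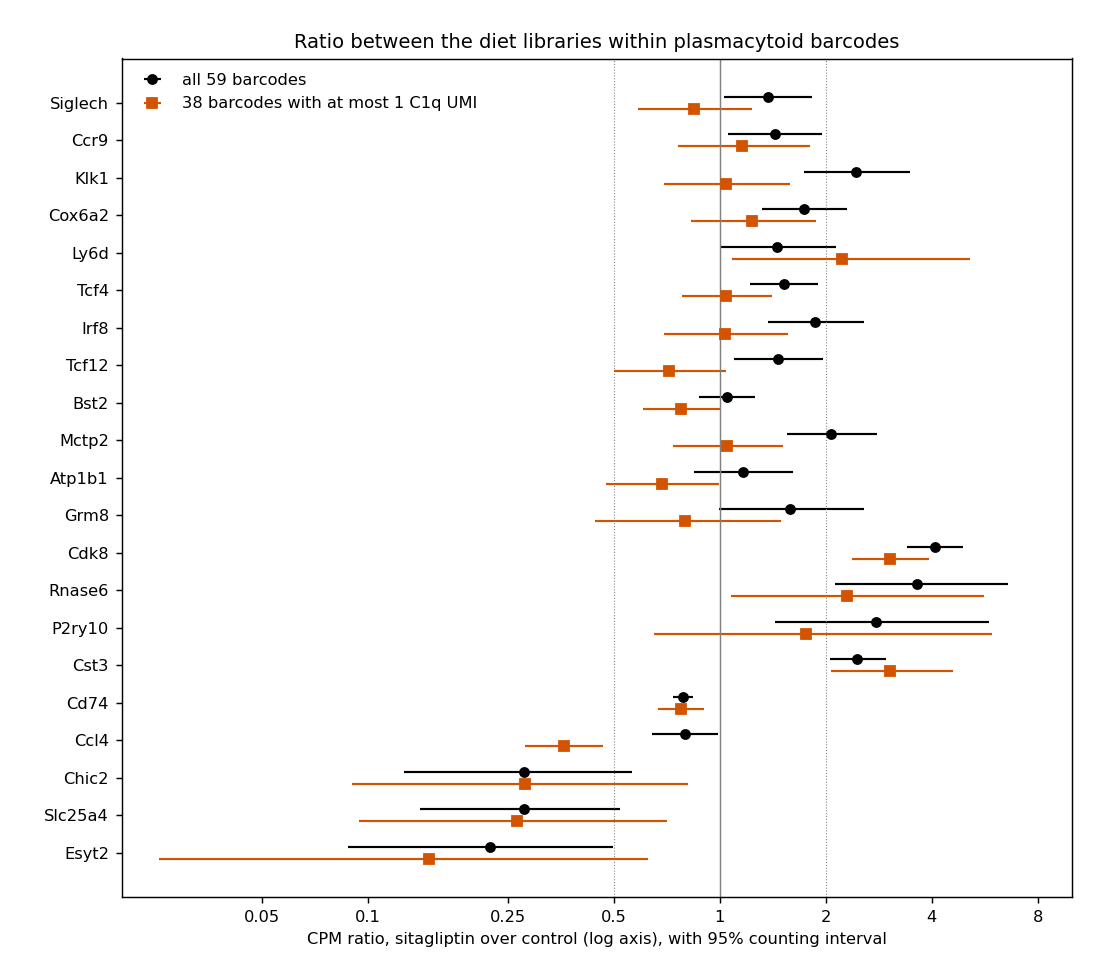
Ratio of CPM, sitagliptin over control (log axis), with 95% counting intervals, for named genes in all 59 plasmacytoid barcodes (circles) and in the 38 with at most 1 C1q UMI (squares). The dotted lines mark 2-fold either way. For Klk1, Tcf4, Irf8 and Mctp2 the ratio in all barcodes is 1.52 or more and lies between 1.03 and 1.05 with little C1q RNA, for Siglech it is then below 1, and for Cdk8, Rnase6 and Cst3 it is above 2 in both. In the barcodes with 8000 UMIs or fewer, not drawn, Rnase6 was at 1.575 and Cst3 at 1.14.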

How the data were processed

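The authors deposited, for each of the 2 libraries, a matrix of raw counts (UMIs per gene and barcode) with gene symbols, and 0 further columns of samples were left aside. Neither labels nor file headers name an aligner, a counter, a genome build or an annotation. The deposited counts were summed over barcodes of a class and scaled to CPM with Python 3.11.15, numpy 2.4.6, scipy 1.17.1 and pandas 2.3.3. Levels have exact Poisson, ratios exact conditional binomial, shares Clopper-Pearson and share ratios Katz 95% intervals. With 1 library per diet there were no tests. The ratio step was tested on simulated data.

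Genes that share a symbol were summed. Doublets were scored with Scrublet in scanpy 1.11.5 (expected rate 0.06, seed 0). The automatic threshold marked 0 barcodes and thus did not work, so no barcode was removed in the main values. The 6% with the highest scores, 586 in sitagliptin and 522 in control, among them 2 and 2 plasmacytoid barcodes, were left out in an alternative.

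The barcodes and gene lists were chosen with earlier results of these data known. Named genes are those of the rule and lists, the 20 highest ratios over other barcodes among genes at least 2-fold higher in both libraries, and the 8 highest and 8 lowest diet ratios among genes with at least 30 UMIs in at least 10 barcodes and at most 25% of them in 1. The rankings leave out genes of mitochondria, ribosomal proteins and haemoglobin, antigen receptor segments, Gm and Rik models, and Xist, Tsix and Y-linked genes. Classes were assigned by marker UMIs, first match first: T cells (Cd3d, Cd3e and Trac at least 3, C1q genes at most 1), B cells (12 barcodes), cDC1 and cDC2 (at least 2 marker UMIs), and macrophages (C1q genes at least 10, Csf1r at least 1). Gene lists counted members with at least 10 UMIs. A few named genes are not reported here. Figures used matplotlib 3.10.9.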

Additional observations from a re-analysis of the deposited data

How the results depend on the processing

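No paired analysis was possible because each diet is 1 library and the labels give no replicate numbers; for the same reason no library could be left out. Of the summary values recomputed, 71 kept their size and 35 moved. Requiring a marker sum of 5, or a second rule gene, moved none of them.

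Counts of genes are to be read beside the number tested, which was 2253 in the main values. Keeping barcodes with at most 1 C1q UMI gave 43 genes at least 2-fold higher and 31 lower between diets, of 847 tested. It left 0 interferon UMIs. Medians against other barcodes were 2.32 for plasmacytoid transcription factors, -0.41 for MHC class II, -1.49 for the cell cycle and -2.50 for macrophage genes. Between diets the cell cycle median reversed to 0.79 and that of macrophage genes to 0.27. Of the cell cycle list only Top2a, Stmn1, Tubb5, Hmgb2 and Pcna kept 10 UMIs in these barcodes. Stmn1 and Pcna stayed lower in sitagliptin (0.4795-fold each). Keeping barcodes of 8000 UMIs or fewer was an alternative chosen after seeing the data. Of 797 genes tested, 35 were lower than in other barcodes, and 33 were higher and 26 lower between diets. C1qa was at 169.8 CPM in sitagliptin and 42.6 CPM in control, and 0 interferon UMIs remained. Medians were 2.30 (transcription factors), 0.74 (interferon response), -0.70 (MHC class II), -1.84 (cell cycle) and -2.58 (macrophages). Here too the diet medians reversed, to 0.56 for the cell cycle and 0.39 for macrophage genes. Of the cell cycle list only Hmgb2, Stmn1 and Tubb5 kept 10 UMIs in these barcodes. Their diet ratios were 1.475 (0.608 to 4.09), 0.313 and 2.35, so the cell cycle medians, -1.84 included, say little about the list.

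Weighting barcodes equally gave 78 genes lower than other barcodes, C1qa at 373.6 CPM in control, and medians of -0.48 (interferon response), -0.44 (MHC class II) and -1.43 (macrophages). Thinning to 2000 UMIs left 614 genes tested, with 123 higher and 17 lower than in other barcodes and 18 higher and 22 lower between diets. It gave C1qa at 229.2 CPM in control, 0 interferon UMIs and a macrophage median of -1.60, and reversed the diet ratio of Ktn1 to 0.914. A minimum of 60 UMIs per gene gave 96 and 4 genes against other barcodes and 21 and 33 between diets, of 1018 genes tested. Without the highest Scrublet scores 0 interferon UMIs remained. The causes of the moves were not tested.

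The 59 barcodes limit every value: a gene below 14.9 CPM in sitagliptin or 17.8 CPM in control had under 3 UMIs, and the intervals do not cover variation between mice.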

Other observations

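Glycolysis and hypoxia genes were mostly at or under the level of all other barcodes. Of 19 measured, 0 were at least 2-fold higher or lower in both libraries, with a median log2 ratio of -0.42. Among all genes with at least 10 UMIs, 7.51% were higher and 1.05% lower. In sitagliptin, 31.0% of the UMIs of the list lay in 1 barcode. Pgk1 had 322 CPM in sitagliptin and 421 CPM in control plasmacytoid barcodes (0.574-fold of the rest), Eno1 1210 and 1935 CPM (0.653-fold) and Ldha 744 and 712 CPM (0.769-fold), whereas Hif1a, the hypoxia factor, had 788 and 546 CPM (1.10-fold). The immediate early genes, which also respond to tissue dissociation, had 0 of 15 members past 2-fold either way, with a median of -0.22. Among them Egr1 had 4 UMIs in sitagliptin and 25 UMIs in control barcodes, and Jun 53 and 110 UMIs.

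The 10 genes at least 2-fold lower than in other barcodes of both libraries, named after their values were seen, were Ccl7, Mrc1, Spp1, Pf4, Wfdc17, Fn1, Tpm1, Pdpn, Abca1 and Sgk1, at 0.259-fold to 0.455-fold. All but Tpm1 were higher in the macrophages than in the rest as a whole: Mrc1, the mannose receptor, had 134 CPM in sitagliptin and 65.3 CPM in control plasmacytoid barcodes, against 807 CPM in macrophages. Tpm1 had 139 and 208 CPM, against 131 CPM in macrophages and 424 CPM in the rest.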
